A study of Danio rerio with 28 samples.

Results

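The comparison sets zebrafish embryos treated with alpha-amanitin, a mushroom toxin that binds RNA polymerase II and halts its movement along DNA, against wild-type (WT) embryos at the same age. Its members were chosen by their titles: the 2 rRNA-depleted libraries of amanitin embryos and the 2 of WT embryos at 4 h post fertilization (hpf), 4 of the 28 libraries in the series. Both groups were whole embryos of the AB strain. The amanitin embryos had received 0.2 ng of alpha-amanitin at the 1-cell stage, and 100 embryos were pooled for each time point in duplicate. For the WT embryos the labels name no treatment and no mock-treated control, and no clutch is named for either group, so clutch, handling and amanitin itself cannot be told apart. The 2 amanitin libraries at 2 hpf and the 2 at 6 hpf, prepared the same way, give the level before and after. Poly(A)-selected WT libraries of 2, 3, 4 and 6 hpf, made with another kit, give the course of poly(A) signal in untreated embryos. Selection depends on the poly(A) tail, so a change over time in these libraries need not be a change in RNA level. The poly(A) WT pair of 0 hpf entered their scaling and the number of libraries used, and its levels are not given.

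A zebrafish egg carries the mRNAs and proteins that run the first cleavages, and the embryo's own genome is switched on at the mid-blastula transition. Maternal factors such as Nanog, Pou5f3 and Sox19b open the genome for that first wave of transcription. From then on egg mRNAs are cleared along a pair of routes. The egg's own deadenylation machinery acts without new transcription, while other egg mRNAs are removed by products of the embryo's genome, such as the microRNA miR-430. At 4 hpf an untreated embryo is a late blastula with an outer epithelium called the enveloping layer, a yolk syncytial layer beneath the cells, and deep cells that are being patterned into mesendoderm, ectoderm and the dorsal organizer.

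The amanitin libraries held 62704672 and 66381933 counts in genes and the WT libraries 53119167 and 39882963. A count above 0 was found for 23800 and 23896 genes in amanitin embryos and for 26985 and 26503 genes in WT embryos. Levels are CPM, each gene's counts over the library's total in 1e6 units, scaled by edgeR's trimmed mean of M values. They are shares of a library, so a change in total RNA per embryo is not seen, and fewer cells of a type cannot be told apart from less RNA per cell. Within the amanitin pair 1235 of 21525 genes differed by 2-fold or more, and within the WT pair 878. The amanitin pair of 6 hpf was less alike, with 2227 genes. Its scaling factors were 0.7745 and 0.7806, against 1.105 for each amanitin library of 4 hpf. Nothing in the labels says that the WT libraries came from separate clutches, so the p-values measure the spread between these libraries.

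Of 21525 genes tested, 7802 (36.2%) were lower and 7028 (32.7%) higher in amanitin than in WT embryos at an adjusted p under 0.05 in edgeR's quasi-likelihood test. Together these are 68.9% of genes. The sizes were unequal: 4670 genes (21.7%) were at least 2-fold lower and 1769 (8.22%) at least 2-fold higher, and 2800 genes were at least 8-fold lower against 120 that were at least 8-fold higher. Only 1586 of those 2800 had more than 3 counts over both amanitin libraries, and 57 of those 120 had more than 3 over both WT libraries, and below that level a fitted fold is not exact. Both libraries of 1 group lay above both of the other for 84.6% of genes. The median log2 fold change (amanitin minus WT) over all genes was -0.02.

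The split differed with the level that a gene had in amanitin embryos at 2 hpf, when most mRNA comes from the egg. Of the 3054 genes under 0.1 CPM in amanitin embryos at 2 hpf, 82.4% were at least 2-fold lower at 4 hpf and 0.982% at least 2-fold higher. The low-count filter let such genes into the test only with counts from other groups, WT embryos at 4 hpf among them. This favours lower calls in that class in advance, and how far it sets the 82.4% was not tested. Between 1 and 10 CPM at 2 hpf the shares were 12.8% and 15%, and at 100 CPM or more they were 2.46% and 4.24%. Among the 4670 genes that were 2-fold lower, 3841 (82.2%) had been under 1 CPM at 2 hpf, against 33.6% of all genes. The same filter favours this share too. In 3488 of them (74.7%) both poly(A) WT libraries of 4 hpf also exceeded both of 2 hpf, against 36.2% of all genes. The other 829 genes were already at 1 CPM or more at 2 hpf. In 652 of these (78.6%) the amanitin level at 4 hpf was within 1.5-fold of that at 2 hpf. The share was 89.6% among all genes at 1 CPM or more at 2 hpf. In 782 of the 829 the WT level at 4 hpf was more than 1.5-fold above the 2 hpf amanitin level. That held for 1830 of all 14299 genes at 1 CPM or more at 2 hpf. Choosing genes 2-fold lower than WT makes the count of 782 likely in advance. The poly(A) WT libraries of 4 hpf stand apart from each other, with 3619 genes at least 2-fold apart, and for this reason both were required to lie above or below.

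**Figure D1:**
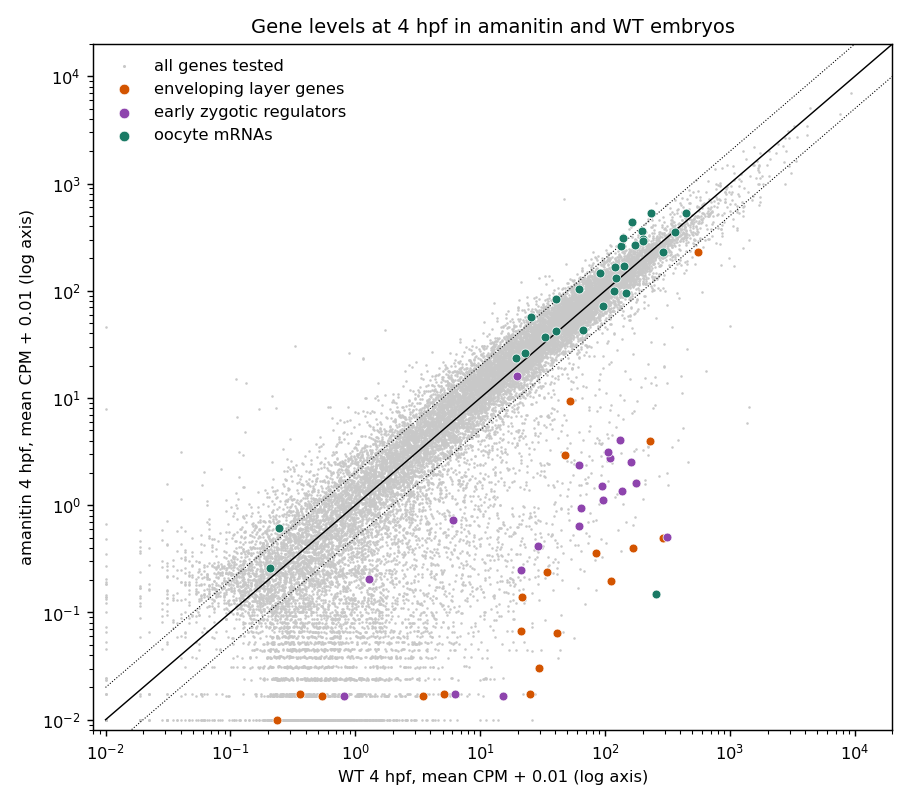
Mean CPM in amanitin embryos (vertical) against WT embryos (horizontal) at 4 hpf, log axes, with 0.01 added; each point is a gene, the solid line marks equal levels and the dotted lines 2-fold. The 20 enveloping layer genes and the early zygotic regulators lie under the lower dotted line apart from lhx1a, while most oocyte mRNAs lie near or above the solid line; the oocyte point far below it is stm.

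Most of the listed genes that a zebrafish embryo transcribes first were far lower in amanitin embryos than in WT embryos. The 20 early zygotic regulators tested were all lower, 19 of them at least 2-fold, with a median log2 fold change of -6.14 against -0.02 for all genes. Their summed level was 37.9 and 42.1 CPM in amanitin embryos and 1607 and 1615 CPM in WT embryos. In amanitin embryos at 2 hpf it was 21.8 and 22.3 CPM. All 20 also stood higher in both poly(A) WT libraries of 4 hpf than in both of 2 hpf. That holds for 36.2% of all genes, and 21.7% of all genes were at least 2-fold lower in amanitin embryos.

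Among the transcription factors of this wave, sox19a (ENSDARG00000010770), a SoxB1 factor of early neural ectoderm, had 1.40 and 1.31 CPM in amanitin embryos, against 136 and 138 CPM in WT embryos. The log2 fold change was -6.66 ± 0.0912 (SE, edgeR adjusted p = 3.2e-23). Its relative SOX3 had 1.30 and 1.68 CPM against 92.8 and 95.4 CPM. The Krüppel-like factor klf17, which acts in the hatching gland and early ectoderm, had 3.16 and 3.08 CPM in amanitin embryos and 109 and 102 CPM in WT embryos. The gene nnr of the same list had 2.44 and 2.56 CPM against 154 and 167 CPM. The Hairy-related repressor her5 had 3.73 and 4.31 CPM against 134 and 131 CPM. The groups lay far apart for all 5 genes. The T-box factor tbx16 (ENSDARG00000007329), needed for mesoderm, had 0.419 and 0.573 CPM in amanitin embryos and 312 and 313 CPM in WT embryos, a log2 fold change of -9.29 ± 0.0950 (edgeR adjusted p = 4.9e-21). The exception in size was lhx1a, a LIM homeobox factor of the organizer, with 14.6 and 17.6 CPM in amanitin embryos and 20.2 and 19.4 CPM in WT embryos. It was present at 16.0 and 16.8 CPM at 2 hpf, and its log2 fold change was -0.30 (edgeR adjusted p = 0.0054). The call of lhx1a was lost without the first amanitin library (-0.16) and with library totals as the only scaling (-0.20).

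Nodal signals, which induce mesendoderm, act through the ligand ndr1, its co-receptor tdgf1 and the secreted inhibitors lft1 and lft2. Of 20 members tested 15 were lower, 12 of them at least 2-fold, and 3 were higher, with a median log2 fold change of -3.27. The ligand ndr1 had 3.81 and 3.04 CPM in amanitin embryos, against 23.9 and 25.7 CPM in WT embryos (log2 fold change -2.86 ± 0.12, edgeR adjusted p = 7.9e-15). At 2 hpf it stood at 4.32 and 4.07 CPM, so the amanitin level at 4 hpf lies close to the egg's. The inhibitors, which are Nodal targets, had no such store: lft1 had 0.144 and 0.314 CPM in amanitin embryos and 21.6 and 20.6 CPM in WT embryos, and the log2 fold change of lft2 was -6.23. The co-receptor tdgf1 was abundant in both groups, with 80.2 and 78.2 CPM in amanitin embryos and 197 and 209.6 CPM in WT embryos, and 79.0 and 76.0 CPM at 2 hpf. Among the endoderm and mesendoderm factors downstream, mixl1 had 0.549 and 0.709 CPM in amanitin embryos against 24.7 and 24.6 CPM in WT embryos. The endodermal GATA factor GATA5 had 0 and 0.0545 CPM against 11 and 11.8 CPM. The forkhead factor foxa3 had 3 counts over both amanitin libraries and 2992 over both WT libraries, a ratio of 1482 (95% interval 506 to 7188, counting error only). The 3 members that were higher were the activin receptors ACVR2A (log2 fold change 0.71) and ACVR1B (ENSDARG00000052142, 0.29) and mespaa, which had 1.08 and 1.21 CPM in amanitin embryos and 0.200 and 0.416 CPM in WT embryos.

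The dorsal organizer secretes antagonists that protect dorsal cells from BMP and Wnt signals. Of 15 organizer genes tested 13 were lower, 12 at least 2-fold, and 1 was higher (median log2 fold change -4.94). That median was -4.03 without the first amanitin library and -3.95 with no filter on low counts. Lower and at least 2-fold lower were 86.7% and 80.0%, against 36.2% and 21.7% of all genes, and 6.67% were higher, against 32.7%. The BMP antagonist chrd (ENSDARG00000006110) had 0.448 and 0.559 CPM in amanitin embryos and 74.7 and 74.0 CPM in WT embryos, a log2 fold change of -7.20 ± 0.12 (edgeR adjusted p = 1.1e-21). The notochord homeobox factor noto had 0.462 and 0.613 CPM against 70.2 and 71.5 CPM. The Wnt antagonist dkk1b had 0.173 and 0.0818 CPM against 12.4 and 13.3 CPM. These 3 genes were near 0 in both amanitin libraries. The homeobox repressor GSC had more left, at 2.73 and 2.02 CPM in amanitin embryos and 29.6 and 31.6 CPM in WT embryos, and it had stood at 2.73 and 2.47 CPM at 2 hpf. The homeobox factor dharma, an early target of maternal beta-catenin, had 0.0289 and 0.286 CPM against 4.74 and 5.28 CPM, so its amanitin libraries differed widely at a low count. The higher member was the secreted Wnt inhibitor frzb, at 2.43 and 2.48 CPM in amanitin embryos and 0.889 and 0.929 CPM in WT embryos.

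For the BMP pathway, which specifies ventral fates, 9 of 13 genes were lower, 7 of them at least 2-fold, and none was higher (median log2 fold change -2.90, or -2.23 without the first WT library). Lower and at least 2-fold lower were 69.2% and 53.8%, against 36.2% and 21.7% of all genes. The ligand bmp7a had 1.11 and 0.736 CPM in amanitin embryos against 45.1 and 43.9 CPM in WT embryos. A BMP2 gene (ENSDARG00000041430) had 1.08 and 1.42 CPM against 68.5 and 71.1 CPM. The target ID1, an inhibitor of basic helix-loop-helix factors, had 1.21 CPM in each amanitin library against 52.1 and 46.8 CPM in the WT libraries. BAMBI, a pseudoreceptor that dampens BMP signals, had 12.7 and 11.5 CPM in amanitin embryos and 87.5 and 92.2 CPM in WT embryos, with 16.5 and 16.3 CPM at 2 hpf. The signalling parts that an egg already holds differed less: SMAD5, the transducer, had a log2 fold change of -0.40 and the receptor BMPR1A of -0.32. ID3 had 11.7 and 13.1 CPM in amanitin embryos and 11.2 and 12.2 CPM in WT embryos (log2 fold change 0.08, edgeR adjusted p = 0.51), a direction that turns with scaling.

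The FGF and Wnt pathways held both genes near 0 at 2 hpf and genes already in the egg. In the FGF list 13 of 14 genes were lower, 10 at least 2-fold, and the median log2 fold change was -3.28 (-2.61 if low counts are not filtered). Lower and at least 2-fold lower were 92.9% and 71.4%, against 36.2% and 21.7% of all genes. The receptor fgfr4 had 0.505 and 0.791 CPM in amanitin embryos and 167 and 165 CPM in WT embryos. The phosphatase DUSP6, a feedback inhibitor of the pathway, had 0.866 and 1.34 CPM against 95.8 CPM in each WT library. FLRT3, a membrane protein that interacts with FGF receptors, had 0.0289 and 0.0409 CPM against 29.9 and 31.8 CPM (log2 fold change -9.69). The receptor FGFR1 (ENSDARG00000011027) was in the egg, and had 183 and 188 CPM in amanitin embryos and 205 and 206 CPM in WT embryos. The ETS factor etv5a was the 1 higher member, with a log2 fold change of 0.19 (edgeR adjusted p = 0.0017). That call was lost with upper-quartile scaling.

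Of 12 Wnt genes 8 were lower, 5 at least 2-fold, and frzb was higher (median log2 fold change -0.95). Lower and at least 2-fold lower were 66.7% and 41.7%, against 36.2% and 21.7% of all genes. The 8.33% at least 2-fold higher was near the 8.22% of all genes. The ligand wnt11f2, which guides gastrulation movements, had 4.25 and 4.92 CPM in amanitin embryos and 106 and 103 CPM in WT embryos (log2 fold change -4.50 ± 0.0810, edgeR adjusted p = 3.3e-21). The target SP5 had 0.0578 and 0.0409 CPM against 5.79 and 5.13 CPM. The ventral ligand WNT8A was far closer between groups, at 47.6 and 48.6 CPM in amanitin embryos and 62.7 and 65.3 CPM in WT embryos, and had stood at 50.3 and 46.9 CPM at 2 hpf. CTNNB1, which encodes beta-catenin, had 343 CPM in each amanitin library and 543 and 509 CPM in the WT libraries.

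**Figure D2:**
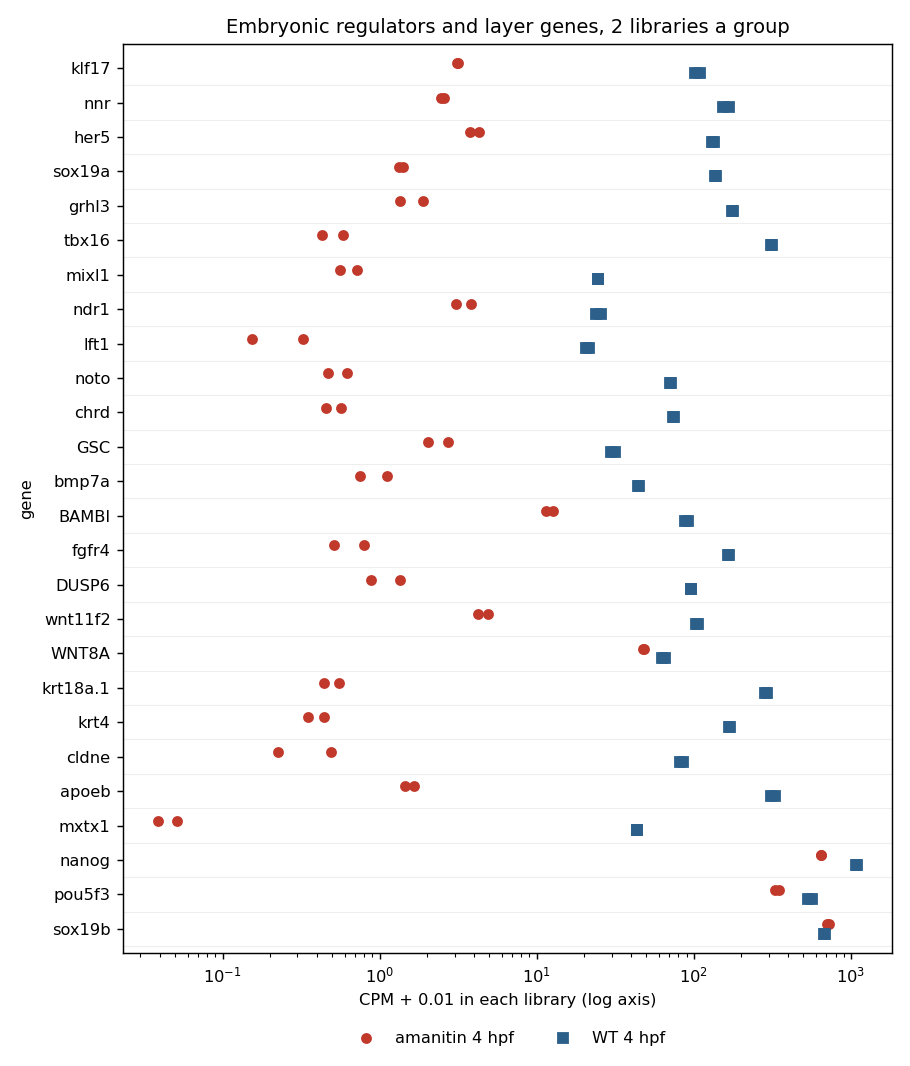
CPM with 0.01 added (log axis) in each library of amanitin embryos (circles) and WT embryos (squares) at 4 hpf for 26 regulators and layer genes. The pairs lie apart for every gene but sox19b, where the libraries lie side by side, and the gap is narrow for WNT8A, nanog and pou5f3.

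Genes of the outer epithelium and the yolk syncytial layer had the lowest medians among the lists with 10 or more genes tested. All 20 enveloping layer genes were at least 2-fold lower, against 21.7% of all genes. Their median log2 fold change was -7.65 (-8.56 if 1 CPM in 2 libraries is required). The keratin krt18a.1 (ENSDARG00000018404) had 0.433 and 0.545 CPM in amanitin embryos and 293 and 285 CPM in WT embryos, a log2 fold change of -9.20 ± 0.0853 (edgeR adjusted p = 3.7e-26). The keratin krt4 had 0.433 and 0.341 CPM against 167 and 170.5 CPM. The keratin krt92 had 1 count over both amanitin libraries and 2380 over both WT libraries. The epithelial transcription factor grhl3, which drives keratinocyte genes, had 1.34 and 1.87 CPM in amanitin embryos and 178 and 176 CPM in WT embryos. Both groups of libraries were tight for these genes, and they did not overlap. Keratin krt8 had a residue of 4.20 and 3.76 CPM in amanitin embryos against 228 CPM in each WT library, and 3.63 CPM in each library at 2 hpf.

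In the yolk syncytial layer list 12 of 13 genes were at least 2-fold lower (median log2 fold change -6.47, or -7.60 without the second amanitin library). That is 92.3%, against 21.7% of all genes. The homeobox factors mxtx1 and mxtx2 drive this layer's gene programme: mxtx1 had 0.0289 and 0.0409 CPM in amanitin embryos against 43.7 and 43.6 CPM in WT embryos, and mxtx2 had 0.939 and 1.08 CPM against 87.5 and 92.0 CPM. The lipoprotein apoeb (ENSDARG00000040295) had 1.44 and 1.65 CPM against 312 and 329 CPM, a log2 fold change of -7.69 ± 0.0703 (edgeR adjusted p = 3.6e-26). MTTP, which loads lipid onto lipoproteins, had 0 and 0.0545 CPM against 40.3 and 44.0 CPM, and the liver and yolk regulator HNF4A had 0.130 and 0.218 CPM against 30.3 and 28.1 CPM. CYP26A1, which degrades retinoic acid, was the member with an egg store, at 34.2 and 33.7 CPM in amanitin embryos and 101 and 110.1 CPM in WT embryos.

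Markers of the cell types were summed as a description. Many of those for the enveloping layer, yolk syncytial layer and mesendoderm are genes already given above. Their sums therefore cannot show which cells an embryo held. The 7 enveloping layer markers summed to 7.20 and 7.34 CPM of the unscaled library total in amanitin embryos and to 969 and 947 in WT embryos. The 3 yolk syncytial layer markers summed to 2.77 and 3.25 against 445 and 460.2, and the 3 mesendoderm markers to 1.07 and 1.48 against 361 and 358. The 5 germ plasm markers ran the other way, at 1539.6 and 1535 in amanitin embryos and 866 and 886 in WT embryos. Most of this sum was buc, at 967 and 956 against 476 and 489. DDX4 was closer, at 188 and 181 against 162 and 169. The 9 markers of later cell types that a blastula lacks, such as neurons, muscle and red blood cells, summed to 0.159 and 0.226 in amanitin embryos, with 4 of them at 0, and to 2.5 and 1.58 in WT embryos, with 2 at 0. ELAVL3 alone gave 1.77 and 0.903 of the WT sums. Follicle and maternal markers summed to 0.414 and 0.467 in amanitin embryos and to 0.471 and 0.677 in WT embryos.

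Claudins are the sealing proteins of tight junctions. Of 21 tested 10 were lower, 9 at least 2-fold, and 5 were higher, 2 at least 2-fold, with a median log2 fold change of -0.78. Lower calls were 47.6% and higher calls 23.8%, against 36.2% and 32.7% of all genes. At least 2-fold lower were 42.9% and higher 9.52%, against 21.7% and 8.22%. The epithelial cldne had 0.217 and 0.477 CPM in amanitin embryos and 81.8 and 86.0 CPM in WT embryos. The claudins with the most counts in the egg were higher in amanitin embryos: cldng had 1103 and 1071 CPM against 509.9 and 562 CPM in WT embryos, and cldnd had 1408 and 1378 CPM against 826 and 901 CPM. At 2 hpf cldng stood at 1525 and 1521 CPM. With a filter of 1 CPM in 2 libraries, which drops low claudins from the test, 6 were lower and the median was 0.02.

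Zinc finger genes are numerous in zebrafish, and some of their clusters are among the first genes transcribed. Of 161 genes named znf that were tested, 80 were lower and 34 higher, with 49 and 6 at least 2-fold, and the median log2 fold change was -0.26. Lower and higher calls were 49.7% and 21.1%, against 36.2% and 32.7% of all genes. Past 2-fold they were 30.4% and 3.73%, against 21.7% and 8.22%. The member znf1066 had 0.231 and 0.341 CPM in amanitin embryos and 44.0 and 40.5 CPM in WT embryos, and znf1061 had 0.144 and 0.0818 CPM against 22.1 and 22.4 CPM. Among those with an egg store, ZNF711 was higher, at 121 and 124 CPM in amanitin embryos and 65.8 and 65.9 CPM in WT embryos. The largest rise in the list was that of znf469, at 9.18 and 10.7 CPM in amanitin embryos and 1.29 and 1.12 CPM in WT embryos. These genes resemble one another, and reads shared between copies could be split by the counting.

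**Figure D3:**
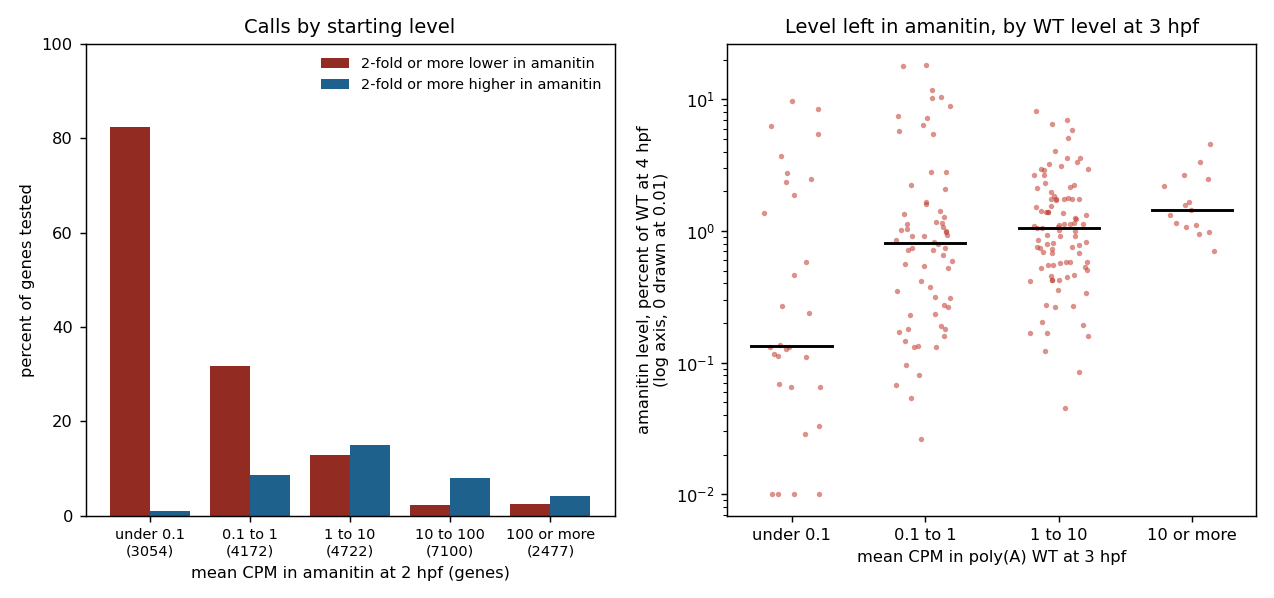
Left, the percent of genes at least 2-fold lower or higher in amanitin than in WT embryos at 4 hpf, by mean CPM in amanitin embryos at 2 hpf (82.4% lower in the lowest class). The low-count filter favours lower calls in that class. Right, for 205 genes under 0.1 CPM in amanitin embryos at 2 hpf, the amanitin level as percent of WT at 4 hpf (log axis) by the poly(A) WT level at 3 hpf. Each point is a gene and bars are medians.

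Many genes that were near 0 in amanitin embryos at 2 hpf had a low level there at 4 hpf. To describe it, 205 genes were taken that had under 0.1 CPM in amanitin embryos at 2 hpf, at least 10 CPM in WT embryos at 4 hpf and a 2-fold lower call. These were chosen on the same contrast, so their values are a description with no test. Their summed level was 4.52 and 4.76 CPM in amanitin embryos at 2 hpf, 167 and 174 CPM at 4 hpf and 21.6 and 22.3 CPM at 6 hpf, and 9264 and 9182 CPM in WT embryos at 4 hpf. Both amanitin libraries of 4 hpf exceeded both of 2 hpf in 164 of the 205 genes (80.0%), and both of 6 hpf in 134. The limit of 0.1 CPM at 2 hpf favours the first of these counts. The median gene stood at 0.930% of its WT level at 4 hpf.

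By gene, the median amanitin level as percent of WT differed between classes set by the poly(A) WT level at 3 hpf. The percent summed over a class did not follow that order. For the 30 genes under 0.1 CPM in poly(A) WT libraries at 3 hpf, the median amanitin level was 0.134% of WT, and in 11 (36.7%) both amanitin libraries of 4 hpf exceeded both of 2 hpf. For the 66 genes between 0.1 and 1 CPM the median was 0.807% and 47 genes (71.2%) did so. For the 94 genes between 1 and 10 CPM it was 1.05% and 91 genes (96.8%). The 15 genes at 10 CPM or more, a small class, had a median of 1.45%, and all 15 were above their 2 hpf level. WT levels at 4 hpf differed between classes too. They summed to 577 CPM in each WT library for the 30 genes and to 1763 and 1768 CPM for the 15. At the same percent of WT, a gene with more counts exceeds its 2 hpf level more readily. How far this sets the counts of genes above 2 hpf was not tested. The classes overlap widely, with an upper quartile of 2.24% in the lowest class and 2.35% in the highest. Summed over genes, the amanitin level was 1.40% and 1.98% of WT in the lowest class, 2.86% and 3.10% in the second, 1.5% and 1.58% in the third and 1.57% and 1.43% in the highest. The mesoderm factor tbx16, at 4.54 CPM in poly(A) WT embryos at 3 hpf, stood at 0.159% of its WT level, far under its class's median. It was at 0 CPM in both amanitin libraries of 2 hpf, had 0.419 and 0.573 CPM at 4 hpf, and had 0 and 0.0748 CPM at 6 hpf. The enveloping layer gene evpla, an envoplakin of the cornified envelope, was at 0.0370 CPM at 3 hpf in poly(A) WT embryos and had 0 and 0.0409 CPM in amanitin embryos at 4 hpf.

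The maternal factors that switch on the genome were present in both groups. Of 8 tested 5 were lower, 1 of them at least 2-fold (kdm6bb, a histone H3K27 demethylase, log2 fold change -2.01), with a median of -0.55. These are 62.5% and 12.5%, against 36.2% and 21.7% of all genes. The homeobox factor nanog had 646 and 645 CPM in amanitin embryos and 1104 and 1084 CPM in WT embryos, a log2 fold change of -0.76 ± 0.0310 (edgeR adjusted p = 4.7e-15). The POU factor pou5f3 had 331 and 347 CPM against 563 and 534 CPM. Both had changed little in amanitin embryos since 2 hpf, when nanog had 569 and 547 CPM and pou5f3 327 and 330.1 CPM. The SoxB1 factor sox19b had 705 and 731 CPM in amanitin embryos and 681 and 676 CPM in WT embryos, and its log2 fold change of 0.08 (edgeR adjusted p = 0.025) turned below 0 or lost its call under other scalings.

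In the chromatin list 21 of 38 genes were lower (55.3%, against 36.2% of all genes) and 9 higher (23.7%, against 32.7%), with a median log2 fold change of -0.14. At least 2-fold lower were 6 genes (15.8%, against 21.7%) and higher 2 (5.26%, against 8.22%). The bromodomain protein BRD2 had 83.4 and 87.6 CPM in amanitin embryos and 404 and 375 CPM in WT embryos, and the de novo DNA methyltransferase dnmt3ba had 106 and 108 CPM against 288 and 289 CPM. The maintenance methyltransferase DNMT1 was higher, at 1351 and 1358 CPM in amanitin embryos and 763 and 764 CPM in WT embryos, and stood at 1417 and 1416 CPM at 2 hpf. The 2 members at least 2-fold higher were the histone methyltransferase kmt2a (log2 fold change 1.27) and the histone chaperone ASF1B (1.23).

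Of 36 splicing factors 27 were lower, 6 at least 2-fold, and 7 were higher, none of them 2-fold, with a median log2 fold change of -0.38. The lower share was above the 36.2% of all genes, and the higher share was 19.4%, against 32.7%. The share at least 2-fold lower, 16.7%, was under the 21.7% of all genes, so most of the lower calls were small. The SR protein srsf5a (ENSDARG00000029818) had 31.4 and 31.7 CPM in amanitin embryos and 295 and 303 CPM in WT embryos, a log2 fold change of -3.24 ± 0.0440 (edgeR adjusted p = 3e-23). SNRNP70, a protein of the U1 particle, had 56.2 and 51.2 CPM against 159.9 and 151 CPM. Members that were higher included the splicing kinases CLK2, with log2 fold changes of 0.52 and 0.54 for its 2 genes, and hnrnpc, with 0.35. In the RNA polymerase II and transcription list, which holds subunits of the enzyme that amanitin blocks, 14 of 28 genes were lower and 6 higher (median -0.13). These are 50.0% and 21.4%, against 36.2% and 32.7% of all genes. The share at least 2-fold lower was 3.57%, against 21.7%. The 1 member past 2-fold was CDK9, the kinase that releases paused polymerase, with 55.6 and 56.0 CPM in amanitin embryos against 144 and 141 CPM in WT embryos.

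Most small non-coding RNAs that were listed and tested were lower in amanitin embryos, and so were rn7sk and rpph1, made by RNA polymerase III. Of 22 small nuclear and related RNAs tested, out of 51 listed, 20 were lower and 19 at least 2-fold, with a median log2 fold change of -3.85. These are 90.9% and 86.4%, against 36.2% and 21.7% of all genes. At 2 hpf 18 of the 22 were under 1 CPM in amanitin embryos. The low-count filter lets an RNA near 0 in amanitin embryos into the test only through other libraries, such as those of WT embryos. This favours lower calls, so the shares cannot stand for all 51. Most of the 22 were spliceosomal RNAs at low counts: a U2 gene (ENSDARG00000080774) had 0.101 and 0 CPM in amanitin embryos and 3.85 and 5.50 CPM in WT embryos. A U1 gene (ENSDARG00000091486) had 0.217 and 0.259 CPM against 2.43 and 2.27 CPM. These genes have near-identical copies, so the level of any 1 copy is uncertain. A stricter filter of 1 CPM in 2 libraries left 9 lower calls and a median of -2.38. The polymerase III product rn7sk, which holds CDK9 in an inactive complex, had 304 and 293 CPM in amanitin embryos and 1329 and 1513 CPM in WT embryos, a log2 fold change of -2.25 ± 0.0769 (edgeR adjusted p = 4.7e-06). Within amanitin embryos rn7sk had 99.4 and 104 CPM at 2 hpf, 304 and 293 CPM at 4 hpf and 6086 and 5716 CPM at 6 hpf. The RNase P RNA rpph1, likewise a polymerase III product, had 243 and 247 CPM at 2 hpf, 519 and 485 CPM at 4 hpf and 2618 and 2189 CPM at 6 hpf in amanitin embryos, against 1212 and 1351 CPM in WT embryos at 4 hpf. Both thus stood higher at each later amanitin time. A more abundant gene named RNaseP_nuc (ENSDARG00000085497) had no such rise by 4 hpf. In amanitin embryos it averaged 1989 CPM at 2 hpf and had 1937 and 2113 CPM at 4 hpf. WT embryos had 2639 and 3002 CPM (log2 fold change -0.48, edgeR adjusted p = 0.019). The microRNA gene MIR19A had 0 CPM in both amanitin libraries and 0.671 and 0.562 CPM in WT embryos. The listed miR-430 gene had 0 counts in all 8 libraries and was not tested.

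Of 17 histone genes tested 10 were lower, 7 at least 2-fold, and 3 were higher (median log2 fold change -0.63). These shares are 58.8%, 41.2% and 17.6%, against 36.2%, 21.7% and 32.7% of all genes. The histone H3 gene hist2h3c had 375 and 376 CPM in amanitin embryos and 834 and 865 CPM in WT embryos. The histone H2A gene hist1h2a4 had 15.4 and 18.4 CPM against 84.6 and 97.0 CPM. The H2A.X-type gene h2ax1 was higher, at 96.6 and 98.0 CPM in amanitin embryos and 53.6 and 52.4 CPM in WT embryos. Of the 13 genes encoded in mitochondrial DNA 11 were lower, 2 at least 2-fold, with a median of -0.32. That is 84.6% lower and 15.4% at least 2-fold lower, against 36.2% and 21.7% of all genes. MT-ND3, a subunit of complex I, had 44.2 and 46.5 CPM in amanitin embryos and 158 and 169 CPM in WT embryos (log2 fold change -1.85 ± 0.0451, edgeR adjusted p = 5.5e-18). The count of lower mitochondrial genes was 7 with library totals as the only scaling, 6 without the first amanitin library and 7 without the first WT library. Mitochondrial DNA has its own polymerase.

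The oocyte and germ plasm lists had the highest medians among the lists with 10 or more genes tested. Of 29 oocyte mRNAs tested 18 were higher, 6 at least 2-fold, and 6 were lower, with a median log2 fold change of 0.34. The shares higher and at least 2-fold higher were 62.1% and 20.7%, against 32.7% and 8.22% of all genes. In 19 of the 29 both poly(A) WT libraries of 4 hpf lay below both of 2 hpf, against 29.9% of all genes. TDRD6 (ENSDARG00000070052), a Tudor protein of germ granules, had 447 and 432 CPM in amanitin embryos and 166 and 162 CPM in WT embryos, and stood at 422 and 433 CPM in amanitin embryos at 2 hpf and 414 and 397 CPM at 6 hpf. On this scaling its level therefore barely moved over the 3 amanitin times. The 6 hpf pair had lower scaling factors, as given above, and how far the 6 hpf level depends on them was not tested. The other kind is shown by BTG4, an adaptor that brings deadenylase to egg mRNAs: its amanitin level was 797 and 809 CPM at 2 hpf, 528 and 527 CPM at 4 hpf and 83.6 and 79.1 CPM at 6 hpf, against 224 and 243 CPM in WT embryos at 4 hpf. MOS, the kinase of meiotic arrest, had 201 and 191 CPM at 2 hpf, 86.4 and 81.6 CPM at 4 hpf and 12.4 and 14.3 CPM at 6 hpf in amanitin embryos, against 40.5 and 40.0 CPM in WT embryos. The importins KPNA2 and kpna7 had log2 fold changes of 0.86 and 0.96.

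Over all genes at least 2-fold higher in amanitin embryos, 1376 of 1769 (77.8%, against 66.4% of all genes) had 1 CPM or more at 2 hpf. In 981 of these (71.3%) the amanitin level at 4 hpf was within 1.5-fold of that at 2 hpf. The share was 89.6% among all genes at 1 CPM or more at 2 hpf. In 307 of the 1376 it was more than 1.5-fold below and in 88 more than 1.5-fold above. Among all 14299 genes at 1 CPM or more at 2 hpf these counts were 1058 and 430. The WT level at 4 hpf was more than 1.5-fold below the 2 hpf amanitin level in 1331 of the 1376 and in 4239 of the 14299. Choosing genes 2-fold higher than WT makes the count of 1331 likely in advance. Both poly(A) WT libraries of 4 hpf lay below both of 2 hpf in 993 of the 1769 genes (56.1%, against 29.9% of all genes). By 6 hpf the amanitin level was more than 2-fold below that at 4 hpf in 65.8% of the 1769 genes, against 28.1% of all genes. The genes were chosen as high in the same amanitin libraries of 4 hpf, which favours such a fall in advance. The 6 hpf pair differed from the 4 hpf pair in scaling and spread, as given above, and the effect of this was not tested.

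The oocyte list had members that did not follow it. The gene stm, which encodes the otolith protein Starmaker and is not known as an oocyte gene, had 0.0433 and 0.232 CPM in amanitin embryos and 255 and 254 CPM in WT embryos (log2 fold change -10.80). CPEB1, a cytoplasmic polyadenylation factor, had 94.1 and 94.6 CPM in amanitin embryos and 148 and 145 CPM in WT embryos. The oocyte kinase WEE2 had a log2 fold change of -0.35.

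Germ plasm mRNAs, which mark the future germ cells, were higher for 15 of 24 genes, 3 at least 2-fold, and lower for 4 (median log2 fold change 0.34). That is 62.5% higher and 12.5% at least 2-fold higher, against 32.7% and 8.22% of all genes. The germ plasm organizer buc had 876 and 865 CPM in amanitin embryos and 459 and 477 CPM in WT embryos, a log2 fold change of 0.90 ± 0.0304 (edgeR adjusted p = 2e-16), with 900.1 and 889 CPM at 2 hpf. The RNA-binding protein DAZL had 191 and 199 CPM against 97.0 and 96.7 CPM. The Tudor protein tdrkh had 120.4 and 113 CPM against 56.0 and 58.8 CPM. The 2 members at least 2-fold lower were both named CXCR4, a chemokine receptor, and both had a low level at 2 hpf. ENSDARG00000057633 had 3.67 and 3.46 CPM in amanitin embryos and 218 and 225 CPM in WT embryos, with 3.28 and 3.56 CPM in amanitin embryos at 2 hpf. ENSDARG00000041959 had 2.53 and 3.60 CPM in amanitin embryos and 131 and 135 CPM in WT embryos, with 2.09 and 2.21 CPM at 2 hpf. The Piwi protein PIWIL1 and the Tudor protein tdrd5 were lower too, by under 2-fold.

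**Figure D4:**
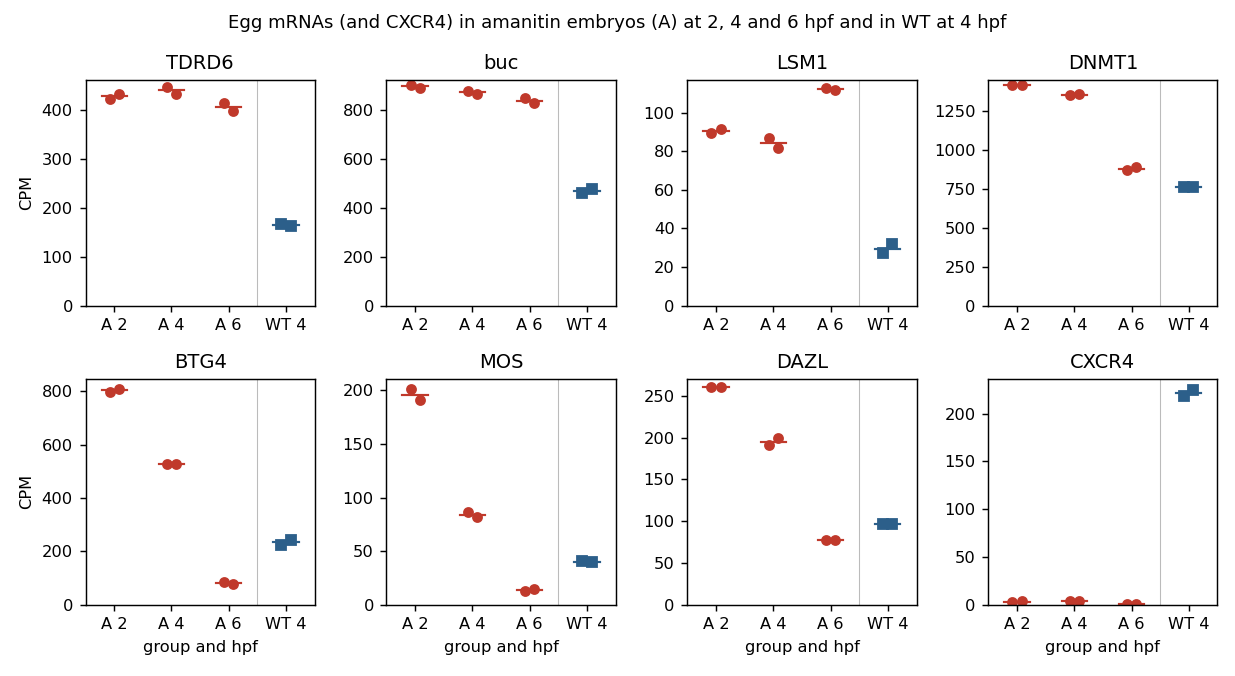
CPM in each amanitin library (A, circles) at 2, 4 and 6 hpf and in each WT library (squares) at 4 hpf; bars are means and every axis starts at 0. TDRD6, buc, LSM1 and DNMT1 at 4 hpf stay near their 2 hpf level, BTG4, MOS and DAZL are lower than at 2 hpf yet above WT, and CXCR4 (ENSDARG00000057633) is high in WT embryos alone among these groups.

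Of 13 known targets of miR-430 tested, 8 were lower, 6 at least 2-fold, and 4 were higher (median log2 fold change -0.31). The share at least 2-fold lower was 46.2%, against 21.7% of all genes, and the share higher 30.8%, against 32.7%. Those at least 2-fold lower were the Nodal genes ndr1, lft1 and lft2, the RNA helicase DDX5, a CD82 gene and the chemokine CXCL12. The helicase had an egg store, with 628 and 635 CPM in amanitin embryos and 1700.4 and 1717 CPM in WT embryos. CXCL12 had 0.0433 and 0.123 CPM in amanitin embryos and 13.9 and 14.2 CPM in WT embryos. The higher ones had an egg store: DAZL, the germline gene NANOS3 (log2 fold change 0.47), the proteasome subunit PSMD6 (0.14, a call lost by DESeq2 and with upper-quartile scaling) and a CD82 gene (ENSDARG00000026070) with 309 and 308 CPM in amanitin embryos and 198 and 215 CPM in WT embryos. The second CD82 gene (ENSDARG00000019098) had 0.347 and 0.477 CPM against 5.68 and 6.89 CPM.

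In the mRNA decay list 25 of 51 genes were lower (49.0%, against 36.2% of all genes) and 16 higher (31.4%, against 32.7%), with a median log2 fold change of -0.17. Only 2 each way were at least 2-fold apart, 3.92% against 21.7% of all genes lower and 8.22% higher. The 2-fold higher pair was BTG4 and LSM1, a subunit of the ring that promotes decapping. LSM1 (ENSDARG00000043177) had 86.8 and 81.8 CPM in amanitin embryos and 27.4 and 31.7 CPM in WT embryos, a log2 fold change of 1.52 ± 0.0553 (edgeR adjusted p = 5.3e-15). The deadenylase CNOT7 had 52.1 and 48.6 CPM against 24.6 and 26.8 CPM, and CNOT10 had 114 and 117 CPM against 72.0 and 69.4 CPM. Lower members included BTG1, with 5.95 and 5.25 CPM in amanitin embryos and 44.4 and 46.0 CPM in WT embryos. Outside this list, the 2 genes that other libraries of the series deplete were also lower: YBX1, a cold-shock RNA-binding protein, had 302 and 298 CPM against 638 and 635 CPM, and the poly(A)-binding protein pabpc1a had 265 and 272 CPM against 455 and 436 CPM.

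The largest rises with a clear signal in both groups were in genes of modest level. KCNK5 (ENSDARG00000023587), a potassium channel, had 31.6 and 28.9 CPM in amanitin embryos and 0.399 and 0.244 CPM in WT embryos, a log2 fold change of 6.50 ± 0.16 (edgeR adjusted p = 6.2e-19). At 2 hpf it had 30.1 and 31.4 CPM in amanitin embryos, and at 6 hpf 0.392 and 0.199 CPM. In poly(A) WT libraries KCNK5 averaged 1.05 CPM at 2 hpf and 4.08 CPM at 4 hpf, so the 2 kinds of library differ for it. The phosphodiesterase pde4ca had 22.7 and 23.2 CPM against 1.2 and 1.08 CPM, and si:dkey-207j16.5 had 43.6 and 41.9 CPM against 1.6 and 1.86 CPM. Like KCNK5, both were in amanitin embryos at 2 hpf, pde4ca at 20.4 and 21.3 CPM and si:dkey-207j16.5 at 64.3 and 62.5 CPM. PDXK, which makes the active form of vitamin B6, differed in its course. It had 23.1 and 23.6 CPM in amanitin embryos and 1.02 and 1.27 CPM in WT embryos, but 1.2 and 1.11 CPM in amanitin embryos at 2 hpf and 2.25 and 1.65 CPM at 6 hpf. The gene si:ch211-158d24.4 had 1118 counts over both amanitin libraries and 0 over both WT libraries, and was at least 251-fold higher against a floor of 3 counts per group.

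The genes with the lowest log2 fold changes included some outside the lists. The adhesion molecule alcamb had 0.0289 and 0.191 CPM against 65.8 and 71.1 CPM in WT embryos, and the sulfate and citrate carrier family member SLC13A4 had 0.0289 and 0.0409 CPM against 19.3 and 19.1 CPM. The protease ctsll had 0 counts over both amanitin libraries and 2477 over both WT libraries, at least 1227-fold lower against the same floor. The claudin cldn23.1 had 1 count against 2652, a ratio of 3939.5 (95% interval 706 to 155660.4, counting error only).

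In the cell division list 15 of 36 genes were lower (41.7%, against 36.2% of all genes) and 16 higher (44.4%, against 32.7%), with a median log2 fold change of -0.02 that turned to 0.07 with library totals as the only scaling. The share at least 2-fold lower, 19.4%, was near the 21.7% of all genes. These 7 genes were replication genes, kinase inhibitors and WEE1. The kinase WEE1, which delays entry into mitosis, had 17.6 and 18.2 CPM in amanitin embryos and 146 and 145 CPM in WT embryos (log2 fold change -3.03 ± 0.0687, edgeR adjusted p = 2.7e-18). The cyclin-dependent kinase inhibitor cdkn1ca had 5.37 and 4.88 CPM against 38.9 and 35.8 CPM, and cdkn1a had 0.390 and 0.695 CPM against 5.01 CPM in each WT library. A gene named MCM6 (ENSDARG00000057683), a subunit of the replicative helicase, had 0.361 and 0.477 CPM against 62.7 and 59.6 CPM, and MCM3 had 0.650 and 0.913 CPM against 17.9 and 18.7 CPM. The 16 higher members included plk1, a mitotic kinase, which had 611 and 602 CPM in amanitin embryos and 416 and 422 CPM in WT embryos. The kinase AURKB had 219 and 213 CPM against 125 and 134 CPM, and the spindle motor kif11 had a log2 fold change of 0.63. The 1 member at least 2-fold higher was the phosphatase cdc25d, with 2.54 and 2.00 CPM against 0.363 and 0.196 CPM.

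**Figure D5:**
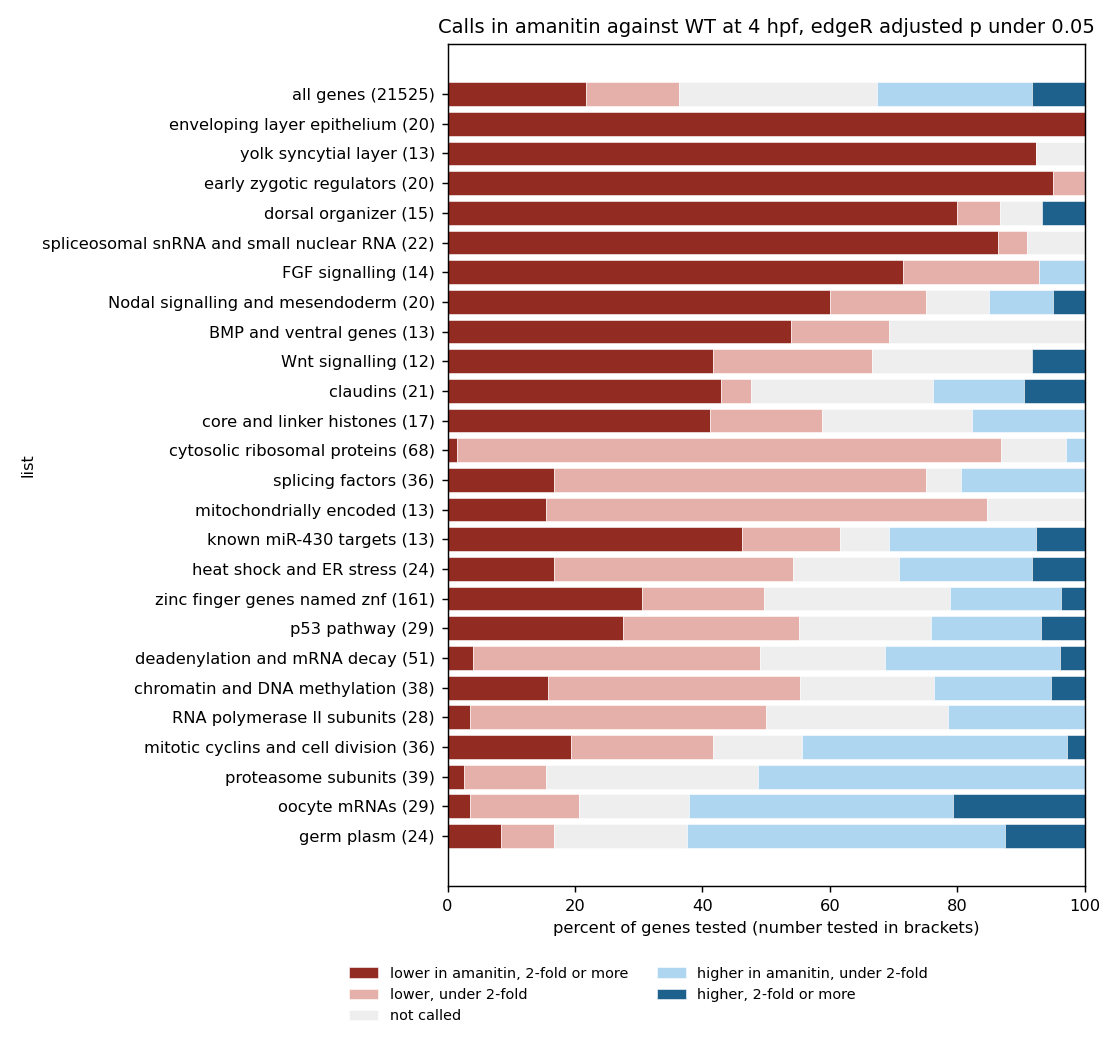
Percent of tested genes in each list that were lower or higher in amanitin than in WT embryos at 4 hpf (edgeR adjusted p under 0.05), at least 2-fold or less, with the number tested in brackets; the top bar is all 21525 genes and the lists run by median log2 fold change. The enveloping layer bar is filled by genes at least 2-fold lower, and the oocyte and germ plasm bars at the foot have the most higher calls.

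In the p53 list 16 of 29 genes were lower and 7 higher (median log2 fold change -0.24). These are 55.2% and 24.1%, against 36.2% and 32.7% of all genes. The shares at least 2-fold lower (8 genes, 27.6%) and higher (2 genes, 6.90%) lay near the 21.7% and 8.22% of all genes. GADD45A, a growth arrest gene, had 0.0578 and 0.0682 CPM in amanitin embryos and 5.28 and 5.84 CPM in WT embryos, and sesn3, a regulator of growth signalling, had 0.650 and 0.709 CPM against 27.9 and 28.5 CPM. The p53 inhibitor MDM4 was higher, at 195 and 196 CPM in amanitin embryos and 105 and 103 CPM in WT embryos. In the heat shock and endoplasmic reticulum stress list 13 of 24 genes were lower and 7 higher (median -0.29). The lower share was 54.2%, against 36.2% of all genes, and the higher share, 29.2%, was near the 32.7% of all genes. The shares at least 2-fold apart, 16.7% lower and 8.33% higher, were again near those of all genes. The small heat shock protein HSPB1 had 2.30 and 2.28 CPM against 96.8 and 92.6 CPM, and the chaperone HSPA8 (ENSDARG00000068992) had 1598 and 1590.1 CPM against 2715 and 2741 CPM. PDIA4, an isomerase of the endoplasmic reticulum, was higher, at 400.2 and 389 CPM in amanitin embryos and 158 and 162 CPM in WT embryos.

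Most ribosomal protein genes were lower, and more proteasome subunits were higher than lower, nearly all by less than 2-fold. Of 68 cytosolic ribosomal protein genes 59 were lower and 2 higher, with a median log2 fold change of -0.39. The lower share was 86.8%, against 36.2% of all genes, and the share at least 2-fold lower 1.47%, against 21.7%. The 1 gene past 2-fold was RPL12, with 324 CPM in each amanitin library and 703 and 729.5 CPM in the WT libraries. The higher genes were RPS2 (log2 fold change 0.28) and RPL7L1 (0.61). Of 39 proteasome subunits 20 were higher, none of them by 2-fold, and 6 were lower, with a median of 0.14. The shares were 51.3% higher and 15.4% lower, against 32.7% and 36.2% of all genes. PSMD14, the deubiquitinase of the lid, had 140.4 and 138 CPM in amanitin embryos and 85.3 and 86.8 CPM in WT embryos. PSMA2, a core subunit, had 70.0 and 68.0 CPM against 44.3 and 45.3 CPM. With upper-quartile scaling the proteasome counts were 16 higher and 10 lower.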

How the data were processed

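Total RNA of pooled whole embryos was depleted of rRNA with Ribo-Zero and made into libraries with the NEB Next Ultra kit, per the labels' protocols, which also describe an mRNA bead purification. The deposited values are whole-number counts per gene, made by the authors with TopHat2 2.1.1 and HTSeq 0.6.0, per the submitters' processing notes. No coordinates or sequences are printed, because the build and gene models behind the counts are not given here in any source. The kit as named does not mark strand, so a gene and its antisense partner cannot be told apart. HTSeq's summary lines were left out of totals. Reads outside genes were 9.18% and 9.02% in the amanitin libraries and 17.9% and 17.2% in the WT libraries, and ambiguous reads 1.47% and 1.65% against 1.55% and 1.56%. Spike-in counts and the knockdown libraries were not used here.

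The 8 rRNA-depleted libraries (amanitin at 2, 4 and 6 hpf and WT at 4 hpf, 2 each) were fitted together in edgeR 4.0.16 (R 4.3.3): filterByExpr, TMM scaling, glmQLFit with robust estimation, glmQLFTest, and Benjamini-Hochberg adjustment over all 21525 genes tested, called at 0.05. The fit had 4 residual degrees of freedom, so 2 libraries a group limit precision. A ± beside a log2 fold change is its SE with n = 2 libraries a group. The 10 poly(A) WT libraries, those of 0 hpf included, were scaled among themselves. Their levels from 2 hpf on were used without a test. The script was tested on simulated data. A floor of 3 counts over a group and 95% exact intervals cover counting error only. DESeq2 1.42.0 and other settings were tried, as given at the close.

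Symbols come from the reference table: 21939 of 33737 IDs had one, and 455 of 608 listed symbols matched. Some IDs share a human-style symbol, and paralogs are then told apart by ID only. Genes were named by rule: the 15 lowest and 15 largest log2 fold changes among called genes with a symbol, 10 CPM in the higher group and more than 3 counts in the lower; in each of 29 lists the 8 smallest adjusted p, members against their list's direction, and every member of lists of 15 or fewer; and 5 genes at or under the floor each way. rpph1, RNaseP_nuc, cdc25d, and the genes of the other observations were chosen after their values were seen. The members and lists were chosen with earlier results of these data known. The replicate numbers do not pair the libraries.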

Additional observations from a re-analysis of the deposited data

How the results depend on the processing

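The totals kept their order of size under most settings: 14830 genes were called (7802 lower, 7028 higher), 13420 by DESeq2 (7599 lower, 5821 higher), 14766 with median-of-ratios scaling, 14727 with upper-quartile scaling, 15005 with library totals only and 15180 without the 6 hpf libraries, a setting added after seeing the data. All calls shared with the main fit kept their sign. Scaling moved the split: lower genes were 52.6% of calls as reported, 59.2% with upper-quartile scaling (8720 lower, 6007 higher) and 45.9% with library totals only (6893 lower, 8112 higher), as the median of all genes went to -0.12 and 0.07. A filter of 1 CPM in 2 libraries left 2718 genes at least 2-fold lower, with 16641 genes tested. A 1.5-fold threshold gave 5515 lower and 3825 higher, and a 4-fold threshold 3599 and 371. Leaving out 1 library at a time gave 6669 to 7134 lower and 6374 to 6499 higher, with 4004 to 4610 and 1619 to 1756 at least 2-fold. That leaves a lone library, assumed to vary like the other groups. Same-numbered libraries did not deviate together (correlations -0.022 to 0.022), and with a replicate block 14401 genes were called (7565 lower, 6836 higher). With upper-quartile scaling sox19b turned to -0.01 and ID3 to -0.01, and the cause was not tested. Of 140 printed genes, RNaseP_nuc not counted, 6 lost their call in at least 1 setting. Spike-in scaling and the promoter search were not run.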

Other observations

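Some symbols are carried by 2 or more gene IDs, and the copies can differ in origin. Of 949 symbols shared by tested genes, 14 had 1 gene that was called at least 4-fold lower in amanitin embryos, with under 1 CPM in amanitin embryos at 2 hpf and at least 5 CPM in WT embryos, beside another that had 10 CPM or more at 2 hpf and was not 2-fold lower. For DEPDC7, ENSDARG00000055043 had 0.404 and 0.464 CPM in amanitin embryos and 69.5 and 75.8 CPM in WT embryos (log2 fold change -7.38), while ENSDARG00000053246 had 118 and 111 CPM in amanitin embryos and 32.8 and 34.1 CPM in WT embryos (1.77). GPD1, a glycerol phosphate dehydrogenase, had the same form, with log2 fold changes of -5.04 and 1.70. For CERS2, a ceramide synthase, they were -5.95 and 0.82, and for CRY1, a cryptochrome of the clock, -5.45 and 0.77. MCM6 paired -7.18 with 0.10, and the planar polarity gene PRICKLE1 paired -7.87 with -0.56.

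A total of 7 genes, 5 of them with a symbol, were at least 4-fold higher in amanitin embryos at 4 hpf than in amanitin embryos at 2 hpf, in amanitin embryos at 6 hpf and in WT embryos at 4 hpf, with at least 5 CPM. They include PDXK, znf469 and kctd12b, a potassium channel tetramerization domain gene, which had 13.8 and 13.5 CPM in amanitin embryos at 4 hpf, against 1.61 and 1.42 CPM in WT embryos, and 1.00 and 1.35 CPM in amanitin embryos at 2 hpf.

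The unnamed gene ENSDARG00000090165 had 4874 and 1602 counts in the amanitin libraries of 4 hpf and 0 in the 16 other libraries used. It was not called (adjusted p = 0.18 in edgeR). ENSDARG00000080317 had 4762 counts in 1 WT library of 4 hpf and 0 in the other, and ENSDARG00000083403 had 4795 and 2.

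Vitellogenin genes, which are made in the mother's liver, stood high in the amanitin libraries of 6 hpf, where vtg1 had 426 and 396 CPM. At 4 hpf vtg1 had 0.245 and 0.218 CPM in amanitin embryos and 0.417 and 0.562 CPM in WT embryos. Its 4 hpf call (log2 fold change -1.04, edgeR adjusted p = 0.0024) was lost without the 6 hpf libraries and without the second WT library (-0.84). Its part in the 6 hpf values given above was not tested.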
